A study of Homo sapiens with 4 samples.

Results

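The genes described here are those of the mitochondrial respiratory chain. They were chosen by symbol: a gene was a member if its name began with NDUFA, NDUFB, NDUFC, NDUFS, NDUFV, UQCR, ATP5, SDHA, SDHB, SDHC or SDHD, or with COX followed by a digit from 4 to 8, held no hyphen, and had at least 1 H3K4me3 peak within 1000 bases of its transcription start site (TSS). Of 95 matching symbols, 86 had such a peak, out of 16403 genes in the whole peak table, and 129 of the 110018 merged peaks belonged to them. The 86 members comprised 5 core and 27 accessory subunits of complex I, 3 subunits of complex II, 7 of complex III, 16 of complex IV and 16 of complex V. The letters also took in 10 assembly factors (NDUFAF and SDHAF genes) and the SDHA pseudogenes SDHAP1 and SDHAP3, which are counted as members and kept in groups of their own. The 9 symbols with no peak within 1000 bases were COX4I2, COX7A1, NDUFC2, SDHAF2, SDHAF3, SDHD, UQCRC2, UQCRHL and the pseudogene UQCRBP1.

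The study asked how blocking the KDM5 histone demethylases alters H3K4me3 in HCC1428, an established luminal breast cancer cell line described as wild type. Cells received DMSO, the solvent control, or 2.5 µM of the KDM5 inhibitor C48, whose columns the table tags GNE, and were collected on day 5. H3K4me3 was mapped by CUT&Tag, in which an antibody directs the transposase Tn5 to the mark so that nearby DNA is cut and sequenced, in 2 libraries per group. The labels call these biological replicates, but no source used here says whether separate cultures were grown, so a p-value here reflects only how far these libraries differ, a spread that may be technical.

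The respiratory chain sits in the inner mitochondrial membrane. Complexes I and II feed electrons from NADH and succinate into the chain, complex III passes them to cytochrome c, complex IV hands them to oxygen, and complex V uses the proton gradient so built to make ATP. The genes here are nuclear, most are expressed in every cell type, and their promoters are known as CpG-rich with sites for NRF1, GABP (an ETS factor), YY1 and SP1. H3K4me3 marks the nucleosomes around the TSS of active genes, and KDM5 enzymes remove it.

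The promoters of 70 members were found in the RefSeq promoter table (GRCh38.p14), each covering 250 bases before and 50 after the TSS. Their median GC content was 60.7% and their median number of CpG dinucleotides 22.5, against 58.7% and 14 over 35093 promoters. Searched on both strands, GCATGCGC, letters of the NRF1 site, was in 18.6% of member promoters and in 3.05% of all. The ETS letters CCGGAAG were in 25.7% against 10.3%, the YY1 letters AAGATGGCG in 10.0% against 1.75%, the cyclic AMP response element TGACGTCA in 5.71% against 1.85%, the SP1 box GGGCGG in 57.1% against 44.9%, and TATAAA in 8.57% against 11.5%. Each motif was counted separately and sites may overlap, since the ETS letters end and the YY1 letters begin with AAG and the NRF1 letters can overlap their own reverse complement. The sequences below are the 120 bases upstream of the TSS for promoters that carry these letters and for COX7B2, a testis isoform without them. They run 5′ to 3′ on the gene's strand, with the motif letters in capitals.
ATP5F1C (chr10:7788057-7788176, + strand): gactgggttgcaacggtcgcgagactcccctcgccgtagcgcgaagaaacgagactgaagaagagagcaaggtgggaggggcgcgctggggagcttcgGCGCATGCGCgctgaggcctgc
NDUFS7 (chr19:1383787-1383906, + strand): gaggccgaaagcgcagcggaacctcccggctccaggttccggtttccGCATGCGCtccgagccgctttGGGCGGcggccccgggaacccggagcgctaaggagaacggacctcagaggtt
ATP5PD (chr17:75046970-75047089, - strand): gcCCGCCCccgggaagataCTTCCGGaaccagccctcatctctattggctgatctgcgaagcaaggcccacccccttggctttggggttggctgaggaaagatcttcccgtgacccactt
COX6A1 (chr12:120437993-120438112, + strand): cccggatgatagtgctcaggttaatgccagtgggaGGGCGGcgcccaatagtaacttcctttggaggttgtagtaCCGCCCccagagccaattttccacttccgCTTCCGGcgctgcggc
ATP5MC1 (chr17:48892667-48892786, + strand): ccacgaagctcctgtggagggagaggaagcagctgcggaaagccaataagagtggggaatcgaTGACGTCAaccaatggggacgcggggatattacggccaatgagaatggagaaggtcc
COX7B2 (chr4:46909246-46909365, - strand): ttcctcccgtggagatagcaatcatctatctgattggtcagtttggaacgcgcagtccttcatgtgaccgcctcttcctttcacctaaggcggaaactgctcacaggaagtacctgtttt
ATP5F1C and NDUFS7 held the NRF1 letters, ATP5PD and COX6A1 the ETS and SP1 letters, and ATP5MC1 the response element. A match in letters is a description of the sequence and was not tied to binding. In some members, such as NDUFA5, COX7A2 and ATP5F1A, the RefSeq promoter lies away from the measured peaks, so sequence and signal come from different sites. The median log2 fold change of members with the NRF1 letters was -0.44 and that of members without them -0.48, and for the ETS letters the values were -0.48 and -0.47. They were -0.59 and -0.47 for the YY1 letters (7 members with them) and -0.48 and -0.47 for the SP1 box. For the response element (4 members) they were -0.53 and -0.48, and for TATAAA (6 members) -0.53 and -0.47. These differences were not tested.

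Signal is given as tags per 10 M aligned tags, summed over the peaks of a gene within 1000 bases of its TSS and scaled with TMM factors, which take most peaks of the table as unchanged. The libraries held 58.4 to 88.4 M aligned tags, with 64.0% to 66.3% of these inside merged peaks. Fold changes are C48 against DMSO on the log2(value + 1) scale from limma, with calls at a Benjamini-Hochberg adjusted p of 0.05 over 14664 genes. Every direction below is relative to this scaling, and a genome-wide shift would not show. The study added fly nuclei to its samples and scaled its own comparisons on them. Spike-in counts were not used here, so lower means lower relative to most peaks of the table, not less mark per cell, and another factor per library would shift all genes together. In a pool of cells, fewer marked cells and less mark per cell cannot be told apart. The luminal label was checked against its markers: 8 of 9 had enough signal to be tested and GATA3 had no peak within 1000 bases. TFF1 (0.92) and SPDEF (0.23) were higher with C48 and the other 6, ESR1 (-0.45) and FOXA1 (-1.07) among them, lower, with a summed level of 4814 to 4859 in DMSO and 3006 to 3143 in C48. Of the other markers, 1 of 5 each could be tested for basal cells (MYLK), for blood and immune cells (CD14) and for stromal and endothelial cells (COL1A2). The summed levels were 75.6 to 76.5 in DMSO and 65.1 to 66.1 in C48 for the basal list, 17.8 to 19.6 and 41.7 to 44.5 for the blood and immune list, and 40.7 to 41.6 and 80.7 to 91.4 for the stromal and endothelial list. KRT5, KRT14, PTPRC, CD3E, PECAM1 and CDH5 had no peak within 1000 bases. The part of other cells in any result was not tested.

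With TMM scaling, 71 of the 86 members were lower with C48, 5 were higher and 10 were not called, with a median log2 fold change of -0.48. Of all genes tested, 64.2% were lower and 18.9% higher, with a median of -0.36, so most members moved the way most promoters did. All 86 members passed the filter on low values. The libraries of the groups did not overlap in 80 members, against 91.0% of all genes. Strong promoters fell more often than weak ones in the whole table, and 77 members had a mean of 100 or more. At that level 88.3% of members and 78.0% of all genes were lower. Among the 9 members with a mean under 100, 3 were higher, 3 lower and 3 not called, where 46.0% of all such genes were higher and 17.5% lower. Over members, the fold change and the log2 mean level had a Pearson r of -0.59 and a Spearman rho of -0.45 (n = 86), and over all genes -0.59 and -0.56 (n = 14664). Genes are not independent replicates and share the same 4 libraries.

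**Figure D1:**
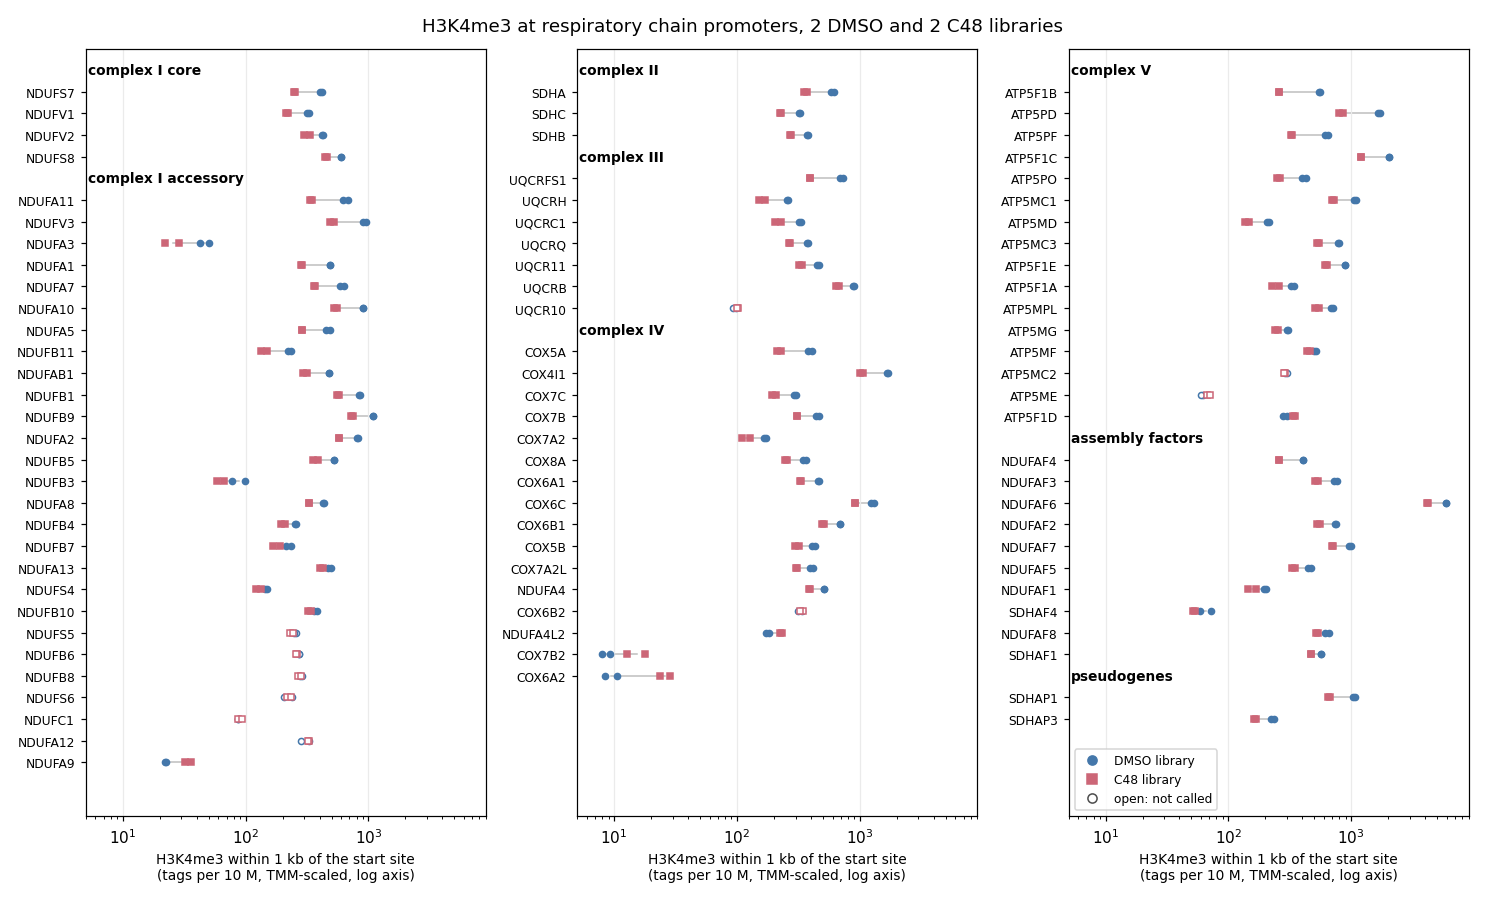
H3K4me3 within 1 kb of the TSS (x axis, tags per 10 M after TMM scaling, on a log axis) of 85 of the 86 members by complex, ordered by fold change. Circles are the 2 DMSO and squares the 2 C48 libraries, the grey line joins the group means, and open symbols mark the 10 members that were not called; with this scaling the C48 squares lie to the left in most rows, and to the right in COX6A2, COX7B2, NDUFA9, NDUFA4L2 and ATP5F1D.

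The sign of the list's median depended on how libraries were scaled. It was -0.54 with DESeq2 size factors and -0.14 per 10 M tags as deposited, but 0.26 when libraries were scaled on cytoplasmic ribosomal protein promoters, and about 0 (-0.0038) after cyclic loess, which removes the trend with signal strength. The median of all genes moved with it, to -0.43, -0.03, 0.37 and -0.01. The gap between members and all genes was -0.11 under each of the scalings by a single factor per library and 0.0084 after loess. On the ribosomal scaling 64 members were higher and 6 lower, where 72.7% of all genes were higher and 8.71% lower. On the deposited scale 18 and 49 were, against 35.8% and 41.2% of all genes, and after loess 23 and 30, against 34.2% and 35.9%. The 6 that were lower under all 5 scalings, named after their values were seen, were ATP5F1B, ATP5PD, ATP5PF, NDUFA11, NDUFV3 and UQCRFS1, with log2 fold changes of -0.34 to -0.11 on the ribosomal scaling.

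**Figure D2:**
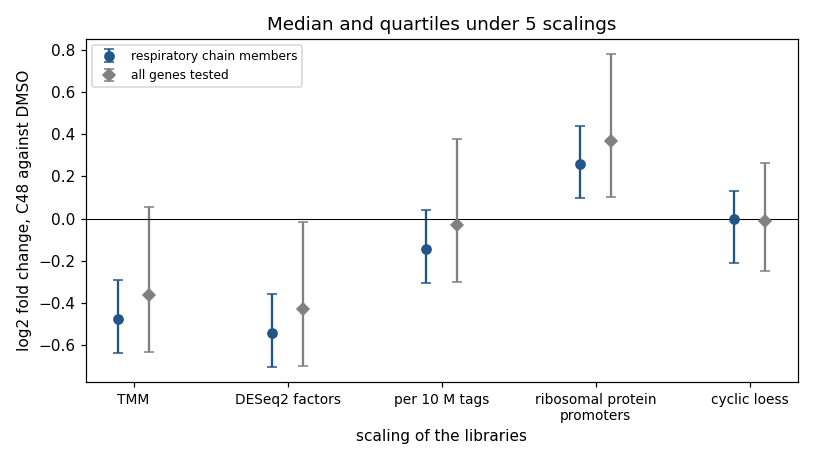
Median log2 fold change (y axis, C48 against DMSO) of the 86 members (circles) and of all 14664 genes (diamonds) under 5 scalings of the libraries (x axis), with bars spanning the quartiles of genes. Members go from -0.54 to 0.26 and all genes from -0.43 to 0.37, and members lie below all genes except after cyclic loess.

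In complex I, the NADH dehydrogenase, all 5 core subunits with a peak were lower (median -0.41). NDUFS7, which carries an iron-sulphur cluster, had 404 and 417 tags per 10 M with DMSO and 245 and 254 with C48 (chr19:1383800-1384431, log2 fold change -0.72, SE 0.056, limma adjusted p = 8.57e-16). NDUFV1, which binds NADH, went from 317 and 328 to 212 and 222 (-0.57, SE 0.061). NDUFS8, another iron-sulphur subunit, went from 594 and 593 to 443 and 462 (-0.39, SE 0.046). In each of these genes both DMSO libraries lay above both C48 libraries.

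Of the 27 accessory subunits, which surround the core of complex I, 20 were lower, 6 were not called and 1, NDUFA9, was higher, with a median of -0.48. NDUFA11, a membrane subunit, went from 683 and 624 to 331 and 348 over 2 peaks (-0.94, SE 0.050). NDUFV3 went from 953 and 901 to 483 and 524 (-0.88, SE 0.044). NDUFB9 had the highest signal of the group, 1082 and 1093 in DMSO and 719 and 754 in C48 (-0.56, SE 0.039). At the other end, NDUFA12 had 283 and 328 in DMSO and 329 and 320 in C48, overlapping values that were not called (0.09, SE 0.060), and it was called higher without DMSO replicate 2 (0.20). The other uncalled accessory subunits were NDUFS5, NDUFB6, NDUFB8, NDUFS6 and NDUFC1, with log2 fold changes from -0.09 to 0.06. The accessory subunits spanned from -0.94 to 0.58.

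NDUFA9 holds a NADPH molecule at the edge of the matrix arm. Its value rests on 1 weak peak 606 bases from the TSS, with 22.5 and 22.1 in DMSO and 31.9 and 35.9 in C48 (0.58, SE 0.16, limma adjusted p = 0.00128), and it was not called after cyclic loess (0.24, limma adjusted p = 0.187). The strongest peak at its GENCODE start site was credited by HOMER to AKAP3 and had 295 and 289 in DMSO and 276 and 287 in C48 (-0.05, SE 0.060, not called). The called rise at NDUFA9 was thus that of a side peak, while the far larger peak over the start site did not pass the test.

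Complex II, succinate dehydrogenase, had 3 members, all lower. SDHA, the flavoprotein that oxidises succinate, went from 618 and 577 to 352 and 372 (chr5:218526-218972, -0.72, SE 0.050). SDHC, a membrane anchor, went from 325 and 322 to 229 and 226 (-0.51). Its strongest peak, which spans the GENCODE start site, is annotated as intron and was lower (-0.54). Peaks annotated promoter-TSS leave that one out, and on these alone SDHC was not called (-0.04, limma adjusted p = 0.876). SDHB, the iron-sulphur subunit, went from 369 and 377 to 269 and 276 (-0.45). SDHD, the other anchor, had no peak under its own name, but the peak at its start site, credited to TIMM8B, fell from 655 and 659 to 397 and 415 (-0.69, SE 0.048).

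In complex III, the cytochrome bc1 complex, 6 of 7 members were lower (median -0.48). UQCRFS1, the Rieske iron-sulphur protein, went from 722 and 693 to 393 and 393 (chr19:29212639-29213595, -0.85, SE 0.046, limma adjusted p = 3.62e-21). UQCRH, which helps dock cytochrome c, went from 256 and 260 to 152 and 167 (-0.69, SE 0.069). UQCRB, which takes part in quinone binding, had the highest signal of the complex, 889 and 875 against 676 and 645 (-0.42). UQCR10, a small subunit, had 97.7 and 93.5 in DMSO and 102 and 99.7 in C48 and was not called (0.08, SE 0.094). Its 2 peaks differed, with the stronger one lower (-0.24) and the weaker one higher (1.20).

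In complex IV, cytochrome c oxidase, 12 of 16 members were lower, 3 higher and 1 not called (median -0.46). COX5A went from 380 and 405 to 212 and 229 (-0.83, SE 0.060), and was not called on its promoter-TSS peaks alone (-0.22, limma adjusted p = 0.438). COX4I1, the common form of the largest nuclear subunit, had the highest signal of the complex, 1664 and 1678 in DMSO and 1006 and 1070 in C48 (chr16:85799509-85800209, -0.69, SE 0.036). The 3 higher members and the uncalled one were all isoforms used in few tissues or conditions: COX6A2 in heart and skeletal muscle, COX7B2 and COX6B2 in testis, and NDUFA4L2 in low oxygen. The other 12 members of the complex, the forms used in most tissues, were all lower, and complex IV had the widest spread of the groups, from -0.83 to 1.37.

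COX6A2 had 10.6 and 8.36 tags per 10 M in DMSO and 28.6 and 23.8 in C48 (1.37, SE 0.21, limma adjusted p = 8.34e-08). These rest on 84 and 48 recovered tags against 188 and 193, and its only near peak lies 611 bases past the TSS and is annotated as the transcription termination site of this short gene. COX7B2 had 7.97 and 9.24 in DMSO and 17.8 and 12.7 in C48 (0.74, SE 0.24), from 63 and 53 tags against 117 and 103, and it was not called without C48 replicate 1 (0.52, adjusted p = 0.141 by limma, against 0.00421 with all libraries), nor after cyclic loess (0.17, limma adjusted p = 0.542). COX6A2 was still called after cyclic loess, at 0.89. NDUFA4L2 had 172 and 181 in DMSO and 225 and 231 in C48 (0.37, SE 0.069), in an intron peak away from the GENCODE start site, where there was no peak. COX6B2 had 311 and 341 against 345 and 328 (0.05, SE 0.057), with overlapping groups.

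The ratio of a restricted isoform to its common partner within a library is not moved by a single factor per library. COX6A2 had 2.3% and 1.8% of the COX6A1 signal with DMSO and 8.83% and 7.14% with C48. For COX7B2 and COX7B the shares were 1.81% and 1.99% against 5.83% and 4.12%. NDUFA4L2 stood at 33.6% and 35.3% of NDUFA4 in DMSO and at 58.1% and 59.0% in C48, and COX6B2 at 45.4% and 49.3% of COX6B1 against 69.6% and 63.7%. In all 4 pairs both C48 libraries lay above both DMSO libraries. An exact permutation test of 2 against 2 libraries cannot go below p = 0.333 (two-sided), so no pair was tested by itself. On the log2 scale the differences of the fold changes were 1.86 for COX6A2 and COX6A1, 1.3 for COX7B2 and COX7B, 0.76 for NDUFA4L2 and NDUFA4 and 0.49 for COX6B2 and COX6B1. After cyclic loess, which treats weak and strong promoters differently, they were 0.90, 0.26, 0.57 and 0.39. The restricted isoforms also had the weaker signal of each pair, and weak promoters gained relative to strong ones over the whole table. The peaks of COX6A2 and COX6B2 were centred 611 and 681 bases from the TSS, and the stronger peak of COX7B2 874 bases. Over all genes, peaks at 500 to 1000 bases had a median log2 fold change of 0.06, against -0.41 within 250 bases. The part of level or peak position in these ratios was not tested.

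**Figure D3:**
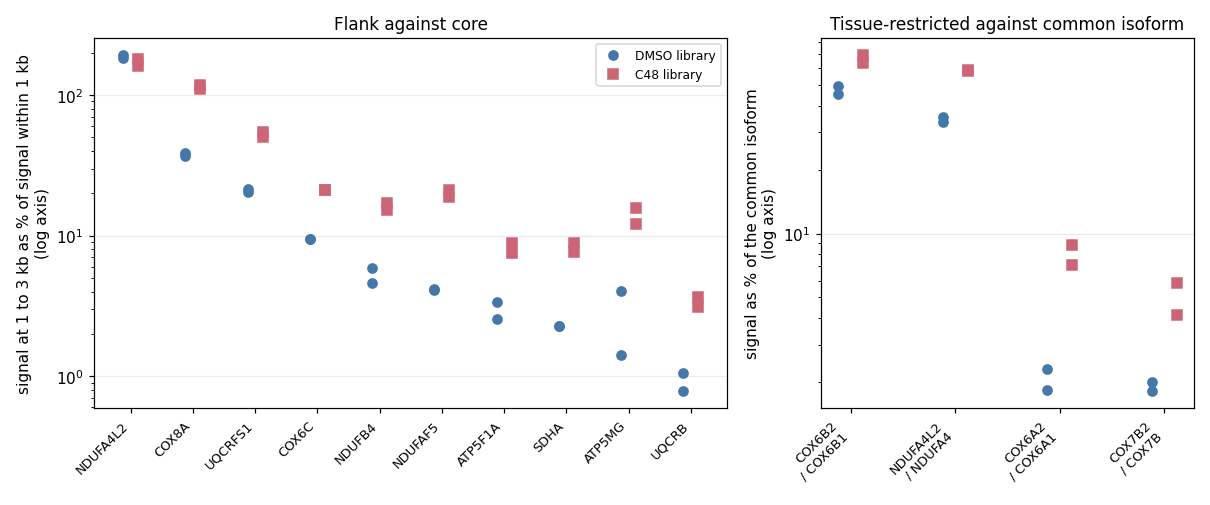
Ratios taken within each library (y axes in percent, log axes), with circles for the 2 DMSO and squares for the 2 C48 libraries. On the left is the signal at 1 to 3 kb from the TSS as a percentage of that within 1 kb for the 10 members with both, higher in C48 in all but NDUFA4L2; on the right is the signal of 4 restricted isoforms as a percentage of the common isoform, with every C48 library above every DMSO library.

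Complex V, the ATP synthase, had the lowest median of the subunit groups, -0.53, with 13 of 16 members lower, ATP5MC2 and ATP5ME not called, and ATP5F1D higher. ATP5F1B, the catalytic beta subunit, fell the most of all members: 543 and 554 in DMSO and 259 and 260 in C48 (chr12:56645330-56646147, -1.08, SE 0.052, limma adjusted p = 5.79e-23). ATP5PD, of the peripheral stalk, went from 1705 and 1661 to 800 and 861 (chr17:75046619-75047164, -1.02, SE 0.037). ATP5F1C, the central stalk gamma subunit, had the highest signal of the complex, 2034 and 2031 in DMSO and 1200 and 1196 in C48 (chr10:7788022-7788850, -0.76, SE 0.033). The ATP5PD and ATP5F1C promoters are among those printed above.

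ATP5F1D, the delta subunit of the central stalk, rose from 301 and 276 to 339 and 348 (0.25, SE 0.058, limma adjusted p = 0.000121). Its peak is annotated as intron and centred 381 bases past the TSS, but it spans the GENCODE start site. ATP5ME, a membrane subunit, had 62.1 and 60.1 in DMSO and 66.5 and 70.7 in C48 and was not called (0.17, SE 0.11). As at NDUFA9, the strong peak at the start site of ATP5ME was credited to a neighbour, MYL5, and it fell from 400 and 404 to 271 and 294 (-0.51, SE 0.057).

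All 10 assembly factors, which help build complexes I and II, were lower (median -0.45). NDUFAF4 went from 407 and 405 to 259 and 260 (-0.64, SE 0.055) and NDUFAF3 from 767 and 731 to 503 and 538 (-0.52, SE 0.045). The smallest falls were at NDUFAF8, from 657 and 611 to 512 and 531 (-0.28), and SDHAF1, from 571 and 563 to 468 and 469 (-0.28). SDHAP1 and SDHAP3, which share sequence with SDHA so that reads may be split between them, had log2 fold changes of -0.69 and -0.47.

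NDUFAF6 had the highest signal of all members, 5888 and 5908 in DMSO and 4179 and 4134 in C48 (-0.50, SE 0.025), summed over 6 peaks at 3 separate groups of start sites. Its peaks did not move alike. The strongest, at 3418 and 3399 in DMSO and 1958 and 1881 in C48, was lower (-0.83), and the peaks at 2 further starts were lower by less (-0.33 and -0.57). The 3 weak peaks beside these starts rose: one from 103 and 104 to 314 and 305 (1.57), one from 69.7 and 69.1 to 143 and 145 (1.04), and one from 45.7 and 49.6 to 94.6 and 93.2 (0.96). The summed value thus joins a fall at the centres with a rise at the edges.

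**Figure D4:**
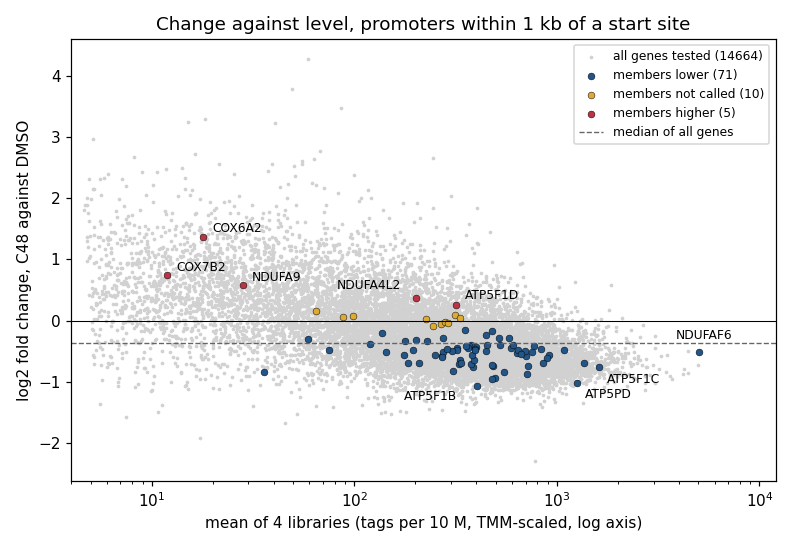
Log2 fold change (y axis, C48 against DMSO, TMM scaling) against the mean of the 4 libraries (x axis, tags per 10 M, log axis) for all 14664 genes (grey) and the 86 members (coloured by call). The members follow the slope of all genes, with a Pearson r of -0.59 in both. COX7B2 (0.74) lies furthest left and NDUFAF6 (-0.50) furthest right, with COX6A2 (1.37) and ATP5PD (-1.02) between them. Another factor per library moves all points up or down together, enough to turn the sign of most members on the ribosomal scaling. Cyclic loess instead takes out the slope, with COX6A2 at 0.89 and ATP5PD at -0.40.

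The same contrast between centre and edge held across the list. Of the members' 129 peaks within 1000 bases, 18 were higher and 83 lower, against 22.9% higher and 54.7% lower of all such peaks. Within 250 bases of the TSS 3 of 60 were higher and 50 lower (median -0.55), from 250 to 500 bases 4 of 42 and 29 (-0.41), and from 500 to 1000 bases 11 of 27 and 4 (0.24). Of all genes' peaks, 1777 of 10334 were higher and 6712 lower within 250 bases. From 250 to 500 bases 1231 of 6491 were higher and 3643 lower, and from 500 to 1000 bases 2109 of 5537 and 1879. The medians of all genes' peaks in these bins were -0.41, -0.31 and 0.06. The 34 members with several peaks held 43 weaker peaks, and 42 of them had a higher fold change than the strongest peak of their gene, against 80.0% of the weaker peaks of all genes. After cyclic loess this held for 23 of the 43, and the medians of the members' bins were -0.11, -0.09 and 0.03. Scaling by another factor hardly moves the differences between bins, but it moves the direction of each.

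Between 1000 and 3000 bases, 13 peaks of the 95 symbols could be tested, 11 were higher and 1 lower, where 63.3% of all such peaks were higher and 15.7% lower. The median was 0.94, against 0.60 for all genes. Peaks called only with C48 are among those in the table, which can favour rises at these distances, for all genes too. The 1 that was lower was credited to SDHAF3, a complex II assembly factor, at 1221 bases from the TSS used in the table (191 and 171 against 149 and 138, -0.33). It spans the GENCODE start site of SDHAF3 and is thus a start-site peak by that annotation, while the remaining flank peak, at NDUFA4L2, was not called (-0.04). Beyond 3000 bases, 36 of 174 peaks passed the filter, with 13 higher and 7 lower, against 50.4% and 11.6% of all.

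**Figure D5:**
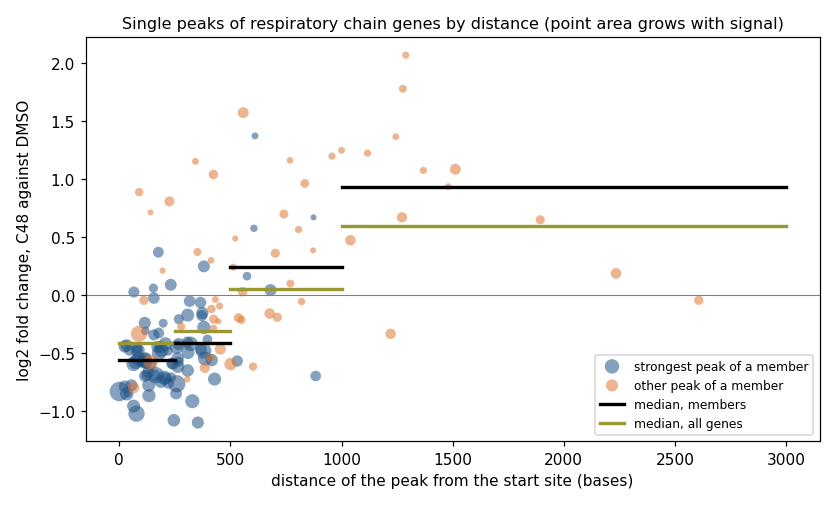
Log2 fold change (y axis, C48 against DMSO, TMM scaling) of each tested peak of the 95 symbols against its distance from the TSS (x axis, bases). Points are single peaks, larger with more signal, in blue for the strongest peak of each member and orange for the others; black and olive lines are the medians per distance bin of these peaks and of all genes' peaks, which go from -0.55 and -0.41 within 250 bases to 0.94 and 0.60 beyond 1000 bases, and another factor per library shifts all of them together. After cyclic loess the medians are -0.11 and -0.12 within 250 bases and 0.72 and 0.39 beyond 1000 bases.

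The flank to core ratio compares both parts of a gene in the same library, so a single factor per library has almost no effect on it. Of 10 members with enough signal in both, 9 had a higher ratio with C48 and none a lower one by limma, where 76.7% of 2718 genes were higher and 6.18% lower. More peaks were called with C48 (37462 and 37867) than with DMSO (30162 and 29745). Of these libraries, the NDUFAF5 flank was called only in C48 replicate 1 and the COX6C flank only in C48 replicate 2. Such flanks can favour higher ratios, in members and all genes alike, and their part in these counts was not tested. The median change was 1.57 on the log2 scale, against 0.96 for all genes. It was 1.55 to 1.58 under the scalings by a factor, with 9 members higher in each. After cyclic loess of flanks and cores together, a choice made after seeing the data, it was 0.69 against 0.43 for all genes. ATP5F1A, ATP5MG and UQCRB then lost their call, which left 6 of 10 higher and none lower, where 1452 of 2718 genes were higher and 343 lower. COX8A, a small subunit of complex IV, had a flank of 36.8% and 38.6% of its core in DMSO and of 110% and 117% in C48 (1.58, SE 0.078). There the core went from 364 and 342 to 253 and 247 while the flank went from 134 and 132 to 278 and 290.

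The assembly factor NDUFAF5 had a flank of 4.17% and 4.11% of its core against 21.0% and 18.9% (2.21, SE 0.11). UQCRFS1 went from 21.4% and 20.6% to 50.5% and 54.9% (1.32, SE 0.085) and SDHA from 2.27% and 2.26% to 7.63% and 8.81% (1.80, SE 0.14). COX6C, a small subunit of complex IV, went from 9.53% and 9.40% to 20.9% and 21.2% (1.15), and NDUFB4, an accessory subunit of complex I, from 5.88% and 4.58% to 17.0% and 15.1% (1.57). UQCRB, ATP5F1A and ATP5MG had changes of 1.79, 1.40 and 2.36, with flanks of 4.31 to 12.2 tags per 10 M in DMSO. NDUFA4L2, whose flank is larger than its core, was the exception, at 194% and 183% in DMSO and 181% and 161% in C48 (-0.14, SE 0.094, not called).

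Many of these genes share a promoter region with a neighbour, so the credit for a peak matters. Of the 86 members, 43 had another GENCODE start site within 1000 bases, and in 21 of these the nearest one was protein coding on the opposite strand. A peak was counted as at the start site if it reached within 1000 bases of it, so it need not cover the start. In 12 members the strongest such peak was credited to another gene, and 10 of these peaks were lower, 1 was higher and 1 was not called (median -0.68). NDUFC1, for example, was not called on its own weak peak (85.9 and 86.7 against 86.6 and 93.9), while the peak credited to NAA15 over its start fell from 929 and 893 to 573 and 568 (-0.67). The 1 that was higher lay beside the start of UQCR10 and was credited to ZMAT5, with 71.6 and 72.9 in DMSO and 84.5 and 91.2 in C48 (0.28). This peak and those at NDUFA11, NDUFB11, NDUFB3 and UQCRH did not cover the member's start and may mark the neighbour's promoter. Taking for each member the strongest peak at its start site, whichever gene it was credited to, a choice made after seeing the data, 74 of 85 were lower, 4 higher and 7 not called, with a median of -0.54. The same choice was not made over all genes, so it has no share to be set against. By summed promoters, 64.2% of all genes were lower and 18.9% higher, and 78.0% were lower at a mean of 100 or more. For 6 subunits or related genes that have no peak under their own name within 1000 bases, such as ATP5PB of the peripheral stalk, a peak as near to the start site was credited elsewhere. These peaks had log2 fold changes from -0.78 to -0.37. At ATP5PB that peak had 1295 and 1206 in DMSO and 754 and 797 in C48 (-0.69).

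In the other energy metabolism lists most genes were lower on the TMM scale, as were 64.2% of all genes, with 18.9% higher. Of 40 tested genes of further chain components and assembly factors, 28 (70.0%) were lower and 5 (12.5%) higher (median -0.44 against -0.36 for all genes), with CMC2 (-0.89), a complex IV assembly factor, CYCS (-0.84), which encodes cytochrome c, and TMEM70 (-0.75), which assembles complex V, at the smallest p. The 5 that rose, named after their values were seen, were PET100 (0.91), TMEM186 (0.31), COA7 (0.30), UQCC1 (0.28) and ACAD9 (0.14). In the citric acid cycle 9 of 10 were lower and none higher (-0.49), led by fumarase FH (-0.67), citrate synthase CS (-0.55) and OGDH (-0.57). Of the regulators of mitochondrial biogenesis 13 of 16 were lower (-0.69), among them YY1 (-1.31), NRF1 (-0.84) and TFAM (-0.70), and only the helicase gene TWNK was higher (0.36). In glycolysis 11 of 14 were lower (-0.49), with the glucose transporter SLC2A1 (-0.81), HK1 (-0.79) and GAPDH (-0.70) at the smallest p, and ENO2 (0.43) and PFKM (0.17) were higher. The 4 lists together had 61 lower and 8 higher of 80. On the ribosomal scaling 6 were lower and 53 higher, where 8.71% of all genes were lower and 72.7% higher, so the sign depends on the scaling here too. As fixed points, KDM5A, KDM5C and ACTB had log2 fold changes of -0.50, -0.55 and -0.67, and KDM5B had no tested peak within 1000 bases.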

How the data were processed

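H3K4me3 was measured by CUT&Tag in 4 libraries. Per the submitters' processing notes, the authors aligned reads with Bowtie2 2.3.4.1 to hg38 and, for the spike-in, to dm6. No source used here gives the HOMER version. The deposited table holds a signal per merged peak and library, HOMER tags per 10 M aligned tags, with each peak credited to its nearest TSS. It carries no spike-in scaling, and spike-in counts were not used here. The deposited repeat table was not used here.

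Peaks within 1000 bases were summed per gene. Values were scaled by TMM (edgeR 4.0.16) over peaks, genes with a mean under 5 were left out, and log2(value + 1) was tested with limma-trend 3.58.1 (R 4.3.3, Benjamini-Hochberg). The fit was tested on simulated data without a scaling step, so that trial cannot bear on the choice of scaling. A pseudocount of 1 understates changes of weak genes. Whole tags were recovered for 100% of values (tolerance 0.1 tags), and the edgeR quasi-likelihood test on them called 12191 genes, against 12190 by limma. DESeq2 1.42.0 and further alternatives are under the closing section. Flanks were peaks over 1000 and up to 3000 bases from the TSS. Start sites came from GENCODE canonical transcripts on hg38 and promoter sequences from RefSeq. Plots were made with Python 3.11.15 and matplotlib 3.10.9. Named are the 2 highest and 2 lowest fold changes and the strongest signal per group, each member called higher, symbols without a near peak, the 3 smallest p per outside list, the 6 smallest p in the flank to core ratio, and KDM5A, KDM5B, KDM5C, GAPDH and ACTB. By this rule 1 further gene would be named, which is not reported here. Groups and replicate numbers came from the sample titles. The members and lists were chosen with earlier results of these data known.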

Additional observations from a re-analysis of the deposited data

How the results depend on the processing

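Scaling was the choice that moved the results. Against 5 higher and 71 lower promoters with TMM, there were 18 higher per 10 M tags, 64 higher and 6 lower on ribosomal protein promoters, and 23 and 30 after cyclic loess, and the median moved from -0.48 to -0.14, 0.26 and -0.0038, and to -0.54 with DESeq2 factors and with the strongest peak at the GENCODE start site, an alternative added after seeing the data. Of all genes, 35.8% were higher per 10 M tags, 72.7% higher and 8.71% lower on ribosomal protein promoters, and 34.2% and 35.9% after loess. Of the members' single peaks, 38 were higher per 10 M tags, 95 higher and 8 lower on ribosomal protein promoters, and 37 and 52 after loess, against 18 and 83. The 4 outside lists had 8 higher and 61 lower, but 20 higher per 10 M tags, 5 with DESeq2 factors, 53 and 6 on ribosomal protein promoters, and 29 and 31 after loess. With promoter-TSS peaks only, 58 members could be tested, of which 41 were lower, against 5841 of 10017 genes. Among the genes named by the rule, COX5A (-0.22) and SDHC (-0.04) lost their call, as their strongest peaks are annotated as intron and were left out here. Of the other members, ATP5MC1, ATP5MPL, COX6A1, COX7A2, NDUFA4 and NDUFV2 also lost their call, and NDUFS5 was called higher (1.15). On ribosomal protein promoters these log2 fold changes turned positive: COX4I1 0.049, NDUFAF3 0.21, NDUFAF4 0.089, NDUFAF6 0.23, NDUFAF8 0.46, NDUFB9 0.17, NDUFS7 0.018, NDUFS8 0.34, NDUFV1 0.16, SDHA 0.014, SDHAF1 0.46, SDHAP1 0.043, SDHAP3 0.26, SDHB 0.28, SDHC 0.23, UQCRB 0.32, UQCRH 0.046. After loess so did NDUFAF3 0.025, NDUFAF6 0.24, NDUFAF8 0.26, NDUFB9 0.029, NDUFS8 0.13, SDHAF1 0.25, UQCRB 0.16, while COX4I1, COX7B2, NDUFA9, SDHB and SDHC lost their call. Per 10 M tags NDUFAF8 (0.053) and SDHAF1 (0.056) turned positive, and UQCR10 was -0.24 with promoter-TSS peaks only. These lists for the scalings cover only genes named by the rule, and further members changed. Examples are ATP5F1E, ATP5MC1, COX7B and NDUFB1, which lost their call after loess, and ATP5MG and NDUFB7, which turned positive per 10 M tags.

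Leaving out each library in turn gave 4 to 6 higher and 69 to 70 lower promoters, a median of -0.50 to -0.45, 16 to 18 higher and 78 to 83 lower peaks, 9 higher ratios, and 5 to 8 higher (5 without C48 replicate 2) and 59 to 62 lower genes in the outside lists. A lone library was then assumed to vary like the other group. NDUFB10, NDUFS4, SDHAF4 and COX7B2 lost their call without at least 1 library. The libraries share a replicate number and nothing else that is stated, and the deviations of the same numbers had a correlation of -0.04 over genes. With the number as a replicate block, 5 members were higher and 71 lower, 18 peaks were higher and 82 lower, 9 ratios were higher, and the outside lists had 8 and 61. The edgeR and DESeq2 count tests, a pseudocount of 5, no filter, a wider window, the primary chromosomes alone, and for the ratio a shorter flank or a stricter filter kept every count within 1.5 times, and so did the scalings of the ratio, added after seeing the data, with 9 higher ratios under each factor and 6 after loess. The weakest member had 48 tags in its lowest library, so changes of the weakest promoters are the least precise.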

Other observations

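In the 34 members with several peaks, 32 of the strongest peaks fell on the TMM scale, while 13 of the 43 weaker peaks rose and 10 fell. Of all genes' peaks within 1000 bases, 22.9% rose and 54.7% fell. In all genes with several tested peaks, 80.0% of the weaker peaks had a higher fold change than the strongest, so the pattern is not particular to the members. COX6A1, the common isoform of a complex IV subunit, fell at its strongest peak (-0.59) while the higher of its weaker peaks had a log2 fold change of 1.25. NDUFS8 had -0.47 at the strongest peak and up to 1.16 at a weaker one, SDHB -0.76 and up to 0.36, and NDUFS5 -0.17 and 1.15. These differences are within the same libraries, so a scaling by one factor per library moves both values together. Cyclic loess does not, and after it 23 of the 43 weaker peaks lay above the strongest peak of their gene. The genes were chosen after their values were seen.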
